A study of Mus musculus with 6 samples.

Results

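The 9 genes described here mark spasmolytic polypeptide-expressing metaplasia, or SPEM, and were followed in the antral epithelium of mice with chemically induced gastritis. They are Wfdc2, Clu, Cd44, Aqp5, Dmbt1, Gpx2, Cftr, Mal2 and Glipr1, taken by symbol from the deposited expression table, which held all 9 among its 17256 genes. SPEM is a mucous cell lineage that appears in the acid-secreting glands of the stomach when parietal cells are lost, and it is named for the trefoil peptide Tff2. It arises in part by reprogramming of zymogen-secreting chief cells, and its cells switch on secreted defence proteins, chaperones, ion and water channels and antioxidant enzymes. In the antrum, the distal stomach, the mucous cells at the base of normal glands make several of the same products, so these transcripts there do not count metaplastic cells.

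All 6 libraries came from antrum epithelium of C57BL/6 mice that had been given 2 agents, the alkylating carcinogen MNNG and a drug spelled Ranitine in the labels, for 20 weeks to induce atrophic gastritis. Of these, 3 libraries followed vehicle and 3 followed PEEPA-P5 by gavage, each for 2 weeks. PEEPA-P5 is known here by its code name alone. Healthy or untreated stomach was not analysed here, so every value is one of gastritis with or without PEEPA-P5. Whether the 3 libraries of a group are 3 mice is not stated in the labels, so a p-value here reflects differences among libraries that could be technical.

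Total counts per library lay between 16388852 and 16903559, and 13071 genes were tested. The label of antrum held to the extent that Gast, the hormone of antral G cells, was present in every library, at 1859, 1219 and 135 CPM (counts scaled to a common library size) with vehicle and 1460, 1004 and 48.0 CPM with PEEPA-P5. Both libraries numbered 3 were thus low in it. Markers of corpus cells were also present and uneven: 5 chief cell genes summed to between 2724 and 89724 CPM, highest in vehicle 3 and lowest in PEEPA-P5 3, and 12 parietal cell genes to between 461 and 7450 CPM. Most of the chief cell sum was the single gene Pgc, at 84035 CPM in vehicle 3 and 2702 CPM in PEEPA-P5 3. PEEPA-P5 3 was lowest of the 6 for fibroblast genes, at 26.2 CPM against 161 to 386 CPM elsewhere, and for endothelial and smooth muscle genes. Genes of T cells stayed at or under 1.60 CPM in sum.

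No SPEM gene passed the adjusted threshold of 0.05 in edgeR's quasi-likelihood test, and neither did any other gene, so 0% of the 13071 were called. Of the 9, 7 were higher with PEEPA-P5 by their fitted log2 fold change and 2, Clu and Glipr1, were lower, where 49.4% of tested genes were higher. The unadjusted p in edgeR was under 0.05 for 3 genes on the higher side, Wfdc2, Gpx2 and Mal2, and for none on the lower side, beside 5.92% and 6.14% of tested genes. In the same 3 genes all PEEPA-P5 libraries lay above all vehicle libraries in CPM, which 9.74% of tested genes did, and in no SPEM gene did they all lie below, which 10.7% did. The median difference in mean log2 CPM over the 9 genes was 0.35, against -0.0066 over all tested genes, and without vehicle 3 it was 0.12. DESeq2 called 101 genes at an adjusted p under 0.05, 0.773% of those tested, and 0 of the SPEM genes.

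**Figure D1:**
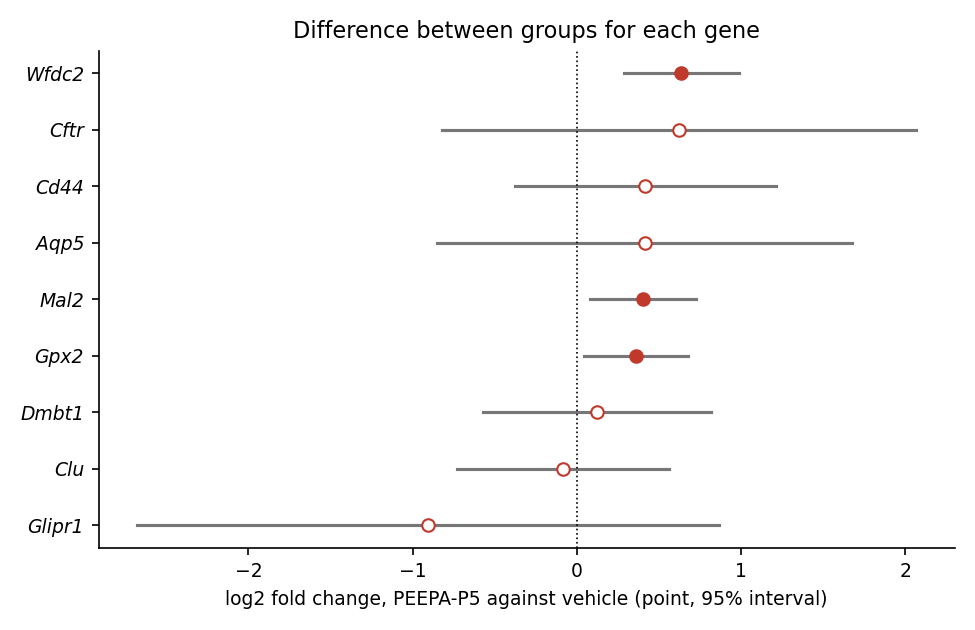
Fitted log2 fold change of each of the 9 genes, PEEPA-P5 against vehicle, as a point with its 95% interval from edgeR, with filled points for groups that did not overlap in CPM and the dotted line at 0. Wfdc2, Mal2 and Gpx2 have intervals above 0, and the intervals of the other 6 genes include 0.

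The order of the genes by level can be read from TPM, which is scaled to transcript length. Clu was the most abundant, with a mean of 779 TPM over the 6 libraries, rank 138 of the 17256 genes. It was followed by Gpx2 at 315 TPM, Dmbt1 at 195 TPM, Wfdc2 at 104 TPM and Mal2 at 104 TPM. Aqp5 at 34.6 TPM and Cd44 at 14.0 TPM were lower, and Cftr at 2.54 TPM and Glipr1 at 1.02 TPM lower again. Between Mal2 and Aqp5, and between Cd44 and Cftr, the ranges over the 6 libraries did not overlap. The other neighbours in the order overlapped in range, although Clu lay above Gpx2, Gpx2 above Dmbt1, Dmbt1 above Wfdc2 and Aqp5 above Cd44 in 6 of 6 libraries. Wfdc2 and Mal2 had nearly the same mean TPM: Wfdc2 was above Mal2 in 3 of 6 libraries, which were the 3 with PEEPA-P5.

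Upstream sequence is shown for the genes whose groups separated and for Aqp5, whose groups did not, as far as the RefSeq table of build GRCm38.p6 held them. It matched 5 of the 9 genes, Wfdc2, Gpx2, Aqp5, Cd44 and Cftr. Clu, Dmbt1, Mal2 and Glipr1 were not matched. The lines give the 120 bases before the start site, 5′ to 3′ on the gene's strand, with matches to 3 motifs in capitals. These are the GC box, which reads GGGCGG or on the other strand CCGCCC, the CCAAT box, which reads CCAAT or on the other strand ATTGG, and the E-box, which reads CACGTG on both strands. They lie at chr2:164562595-164562714 on the plus strand for Wfdc2, chr12:76795555-76795674 on the minus strand for Gpx2 and chr15:99590908-99591027 on the plus strand for Aqp5.
Wfdc2: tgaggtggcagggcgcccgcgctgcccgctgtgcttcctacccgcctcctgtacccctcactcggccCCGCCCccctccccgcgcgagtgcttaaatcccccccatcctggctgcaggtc
Gpx2: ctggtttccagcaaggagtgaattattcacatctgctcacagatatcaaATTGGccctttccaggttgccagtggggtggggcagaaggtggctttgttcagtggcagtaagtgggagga
Aqp5: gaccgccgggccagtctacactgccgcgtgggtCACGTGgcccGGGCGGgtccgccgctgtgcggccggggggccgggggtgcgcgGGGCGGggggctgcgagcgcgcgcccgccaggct

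The windows differed in composition more than they shared motifs. Over 250 bases upstream, Aqp5 had 78.4% G and C with 38 CG pairs and Cftr 76.4% with 30 CG pairs. Wfdc2 had 64.8% with 14 CG pairs, Cd44 56.4% with 5, and Gpx2 49.2% with 0, where the median of all 32851 windows was 52.4% with 6. A GC box on either strand, the site of Sp1-type factors, was found in 3 of the 5 windows (Wfdc2, Aqp5 and Cftr) and in 32.7% of all windows, starting at position -53 in Wfdc2 and at -77 and -34 in Aqp5. Only Gpx2 of the 5 held a CCAAT box, at -71, as did 33.8% of all windows, and only Aqp5 held an E-box, at -87, as did 6.02%. None of the 5 held TATAAA, found in 12.4% of windows, the AP-1 site TGANTCA, in 6.75%, or the STAT site TTCNNNGAA, in 7.02%. The antioxidant response core TGACNNNGC was in none of the 5 either, that of the antioxidant enzyme gene Gpx2 included, and in 10.2% of all windows. The motifs were searched on both strands, and a missing match says only that these letters are not in the window.

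Wfdc2, a small secreted protein of the whey acidic protein family also known as HE4 and an early SPEM marker, had the smallest p of the 9. It stood at 43.5, 34.2 and 35.3 CPM in vehicle libraries 1, 2 and 3, and at 54.8, 52.3 and 68.8 CPM in PEEPA-P5 libraries 1, 2 and 3. Every PEEPA-P5 library thus lay above every vehicle library, with PEEPA-P5 3 the highest. The means were 37.7 ± 5.10 and 58.6 ± 8.94 CPM (SD, n = 3 each), a fold of 1.56 with a 95% interval of 1.22 to 1.98. In edgeR the log2 fold change was 0.64 ± 0.15 (SE) with an unadjusted p of 0.00343 and an adjusted p of 0.412. No gene had a smaller adjusted p, but Mal2, Gpx2 and other genes shared this value. By unadjusted p in edgeR, Wfdc2 was at rank 64 of the 13071 tested genes. With DESeq2 the adjusted p of Wfdc2 was 0.0504. It was also the only SPEM gene whose groups did not overlap in TPM, at 72.0 to 99.5 TPM with vehicle and 118 to 131 TPM with PEEPA-P5, as for 4.04% of tested genes.

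Mal2, a membrane proteolipid needed for transcytosis to the apical surface of polarised epithelial cells, separated the groups by a narrower margin. Its level was 248, 235 and 207 CPM with vehicle and 297, 263 and 353 CPM with PEEPA-P5. The lowest PEEPA-P5 library, number 2, lay just above the highest vehicle library, number 1, and PEEPA-P5 3 was again the highest. The means of 230.1 ± 20.7 and 304 ± 45.7 CPM (SD, n = 3 each) gave an edgeR log2 fold change of 0.40 ± 0.14 (SE), an unadjusted p of 0.0204 and an adjusted p of 0.412. In TPM the groups of Mal2 overlapped, at 75.2 to 106 TPM with vehicle and 105 to 121 TPM with PEEPA-P5.

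Gpx2, the glutathione peroxidase of the gut epithelium, which reduces hydroperoxides, was the third gene with separate groups. It stood at 239.7, 235 and 204 CPM with vehicle and 339, 275 and 255 CPM with PEEPA-P5. Here PEEPA-P5 1 was the highest library and vehicle 3 the lowest. The means were 226 ± 19.6 and 289.8 ± 44.0 CPM (SD, n = 3 each), with an edgeR log2 fold change of 0.36 ± 0.14 (SE), an unadjusted p of 0.0320 and an adjusted p of 0.412. Scaled by library size alone the groups overlapped, since vehicle 2 was then at 259 CPM and PEEPA-P5 3 at 230.1 CPM, and they overlapped in TPM too. Of the 31-base stretches in Gpx2 transcripts, 9.64% also occur in transcripts of other genes, mostly the pseudogene Gpx2-ps1, so its reads could have been divided.

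**Figure D2:**
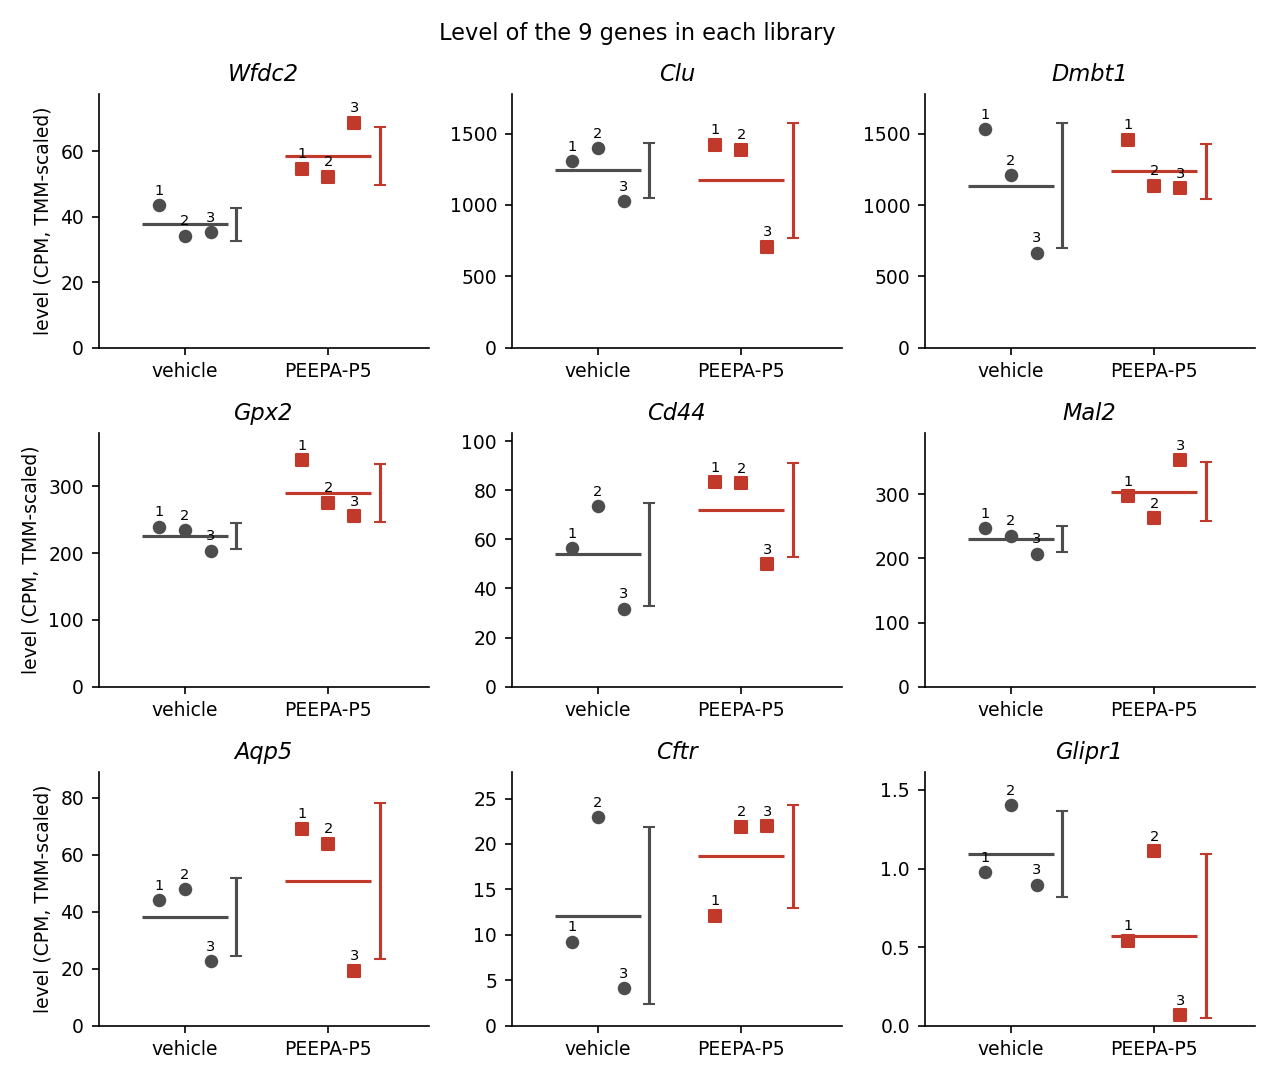
Level of each gene in each library in CPM scaled by TMM, with a linear axis from 0 in each panel, numbers for the libraries, horizontal lines for group means and bars for 1 SD (n = 3). Wfdc2, Gpx2 and Mal2 have every PEEPA-P5 library above every vehicle library, and the other 6 genes have overlapping groups.

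Genes of surface pit cells, the mucous cells of the gastric surface, differed between the groups in the same direction as Wfdc2, Gpx2 and Mal2. All 9 pit cell genes were higher with PEEPA-P5 by their fitted fold change, 6 at an unadjusted p under 0.05 in edgeR, 0 at an adjusted p under 0.05, and 8 with groups that did not overlap, or 6 when scaled by library size alone and 4 in TPM. Their summed level was 127504 to 150897 CPM with vehicle and 162941 to 201572 CPM with PEEPA-P5, and was highest in PEEPA-P5 3, as were Wfdc2 and Mal2. In the opposite direction, all 12 parietal cell genes were lower with PEEPA-P5, 7 with groups that did not overlap, 9 at an unadjusted p under 0.05 in edgeR and 0 at an adjusted one. All 5 chief cell genes were lower too, 1 with separate groups and 4 at an unadjusted p under 0.05 in edgeR. So were all 9 enteroendocrine genes, 4 with separate groups and 3 at such a p, and 0 of either list passed at an adjusted one. Of all tested genes, 5.92% were higher and 6.14% lower at an unadjusted p under 0.05 in edgeR. Groups were separate upwards in 9.74% and downwards in 10.7% of them in CPM, and upwards in 4.04% in TPM. In bulk tissue fewer cells of a type and less RNA per cell cannot be told apart, and the part of these cell types in the differences of the SPEM genes was not tested.

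Cd44, the hyaluronan receptor, whose splice variants mark SPEM and other metaplasia, was uneven in both groups. It stood at 56.4, 73.5 and 31.8 CPM with vehicle and at 83.3, 82.8 and 49.9 CPM with PEEPA-P5. The groups overlapped because vehicle 2 exceeded PEEPA-P5 3, while within each replicate number the PEEPA-P5 library was the higher one. The edgeR log2 fold change was 0.42 with a 95% interval of -0.38 to 1.21 and an adjusted p of 0.603. With the replicate number as a block, the unadjusted p of Cd44 in edgeR was 0.0143 and the adjusted p 0.364. That fit put 4 SPEM genes on the higher side at an unadjusted p under 0.05, Cd44 besides Wfdc2, Gpx2 and Mal2, beside 6.62% of tested genes. The labels give the replicate numbers no meaning, and they were taken as possible pairs from these same data. The p-values of that fit thus do not count as support for a difference. The deposited values are per gene, so the splice variants of Cd44 were not analysed here.

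Aqp5, a water channel of secretory epithelia and of gland cells at the base of the antral gland, differed most between the libraries numbered 3 and the rest. Its level was 44.1, 47.8 and 22.6 CPM with vehicle and 69.2, 63.8 and 19.3 CPM with PEEPA-P5. Libraries 1 and 2 of PEEPA-P5 were the highest and both libraries numbered 3 the lowest, so the groups overlapped. Over all 6 libraries the edgeR log2 fold change was 0.41 with a 95% interval of -0.85 to 1.67 and an adjusted p of 0.744, and without PEEPA-P5 3 it was 0.80. Without both libraries numbered 3, Aqp5 had a log2 fold change of 0.54 with an unadjusted p of 0.00184 and an adjusted p of 0.598 in edgeR. The libraries left out were those lowest in Aqp5, and without them its SE fell from 0.52 to 0.10. Its small p there depends on which libraries were left out and does not count as support for a difference. That fit of 4 libraries put 4 SPEM genes on the higher side at an unadjusted p under 0.05, namely Wfdc2, Gpx2, Cd44 and Aqp5, beside 3.47% of its 13219 tested genes. The libraries left out were the lowest in Cd44 as well, so that number of genes does not count as support either.

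Cftr, the apical chloride and bicarbonate channel, rested on fewer reads, 64 to 425 counts per library. It stood at 9.26, 22.9 and 4.10 CPM with vehicle and at 12.1, 21.9 and 21.98 CPM with PEEPA-P5. Vehicle 2 was above every PEEPA-P5 library, vehicle 3 was the lowest, and the groups overlapped. The edgeR log2 fold change of 0.62 had a 95% interval of -0.82 to 2.06 and an adjusted p of 0.670. It rested on single vehicle libraries: without vehicle 2 it was 1.48, at an unadjusted p of 0.0150 in edgeR, and without vehicle 3 it was 0.21.

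Clu and Dmbt1, which both encode secreted proteins, had log2 fold changes near 0 whose sign depended on single libraries. Clu, a secreted chaperone and a marker of reserve and regenerating epithelial cells, stood at 1306, 1397 and 1028 CPM with vehicle and 1424, 1387 and 707 CPM with PEEPA-P5. PEEPA-P5 3 was the lowest, and the other 5 libraries lay between 1028 and 1424 CPM. Its edgeR log2 fold change was -0.08 with a 95% interval of -0.73 to 0.56 and an adjusted p of 0.909, and 0.18 without PEEPA-P5 3. Dmbt1, a scavenger receptor cysteine-rich protein that binds bacteria in mucus, stood at 1534, 1212 and 666 CPM with vehicle and 1459, 1137 and 1119 CPM with PEEPA-P5. Here vehicle 3 was the lowest, and vehicle 1 the highest. The edgeR log2 fold change of Dmbt1 was 0.12 with a 95% interval of -0.57 to 0.82 and an adjusted p of 0.869, and it was -0.15 without vehicle 3.

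Glipr1, a member of the CAP superfamily of secreted and membrane proteins, was close to the limit of detection. Its counts were 17, 26 and 14 with vehicle and 9, 19 and 1 with PEEPA-P5. The PEEPA-P5 library was below the vehicle library of the same number in 3 of 3 cases, but PEEPA-P5 2 lay above vehicle 1 and 3, so the groups overlapped. The edgeR log2 fold change was -0.91 with a 95% interval of -2.68 to 0.86 and an adjusted p of 0.617. Of its transcripts' 31-base stretches, 6.7% also occur in other genes.

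**Figure D3:**
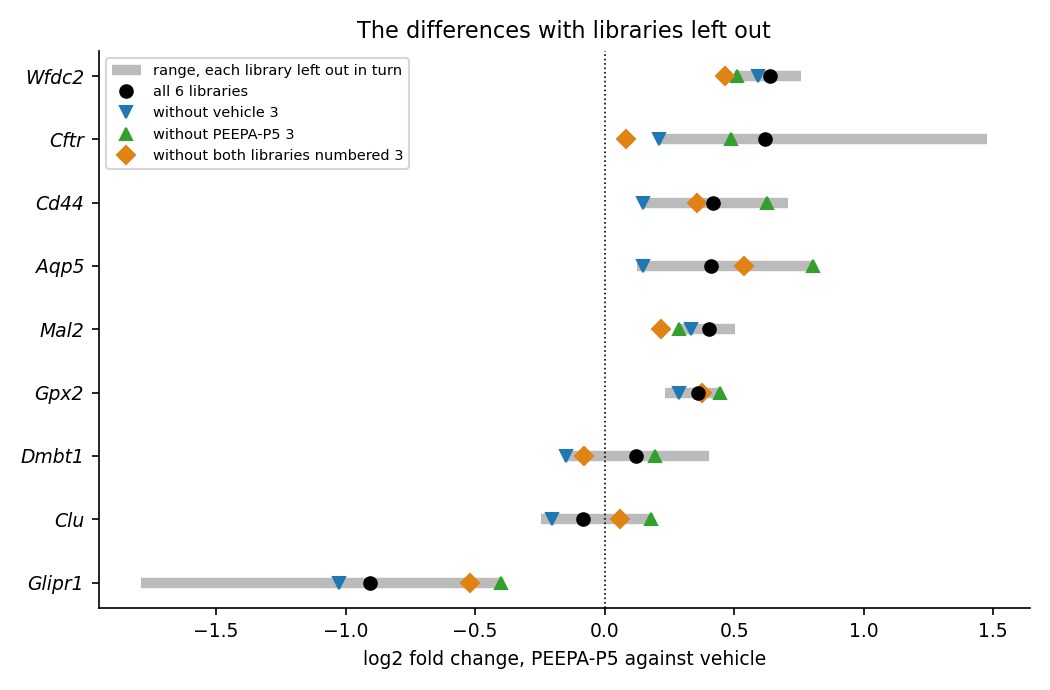
Fitted log2 fold change of each gene with all 6 libraries (black), without vehicle 3, without PEEPA-P5 3 and without both, with a grey bar for the range when each library is left out in turn. Wfdc2, Mal2, Gpx2, Cd44, Aqp5 and Cftr stay above 0 and Glipr1 below 0 in all of these fits, while Clu and Dmbt1 cross 0.

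Across libraries the 9 genes did not form a single pattern. With each gene centred on its own mean log2 CPM, vehicle 3 was the lowest library for 5 genes (Cd44, Dmbt1, Gpx2, Cftr and Mal2) and below the mean for 8 of 9, with a median of -0.40. PEEPA-P5 3 was the lowest for Clu, Aqp5 and Glipr1 and the highest for Wfdc2 and Mal2, with a median of -0.04. PEEPA-P5 1 was the highest for 4 genes and had a median of 0.28. Vehicle 3 was also the library richest in chief and parietal cell genes, and PEEPA-P5 3 the one poorest in enteroendocrine genes, at 114 CPM against 1409 to 2780 CPM elsewhere, and in fibroblast genes. The part of these cells in the levels of the 9 genes was not tested.

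**Figure D4:**
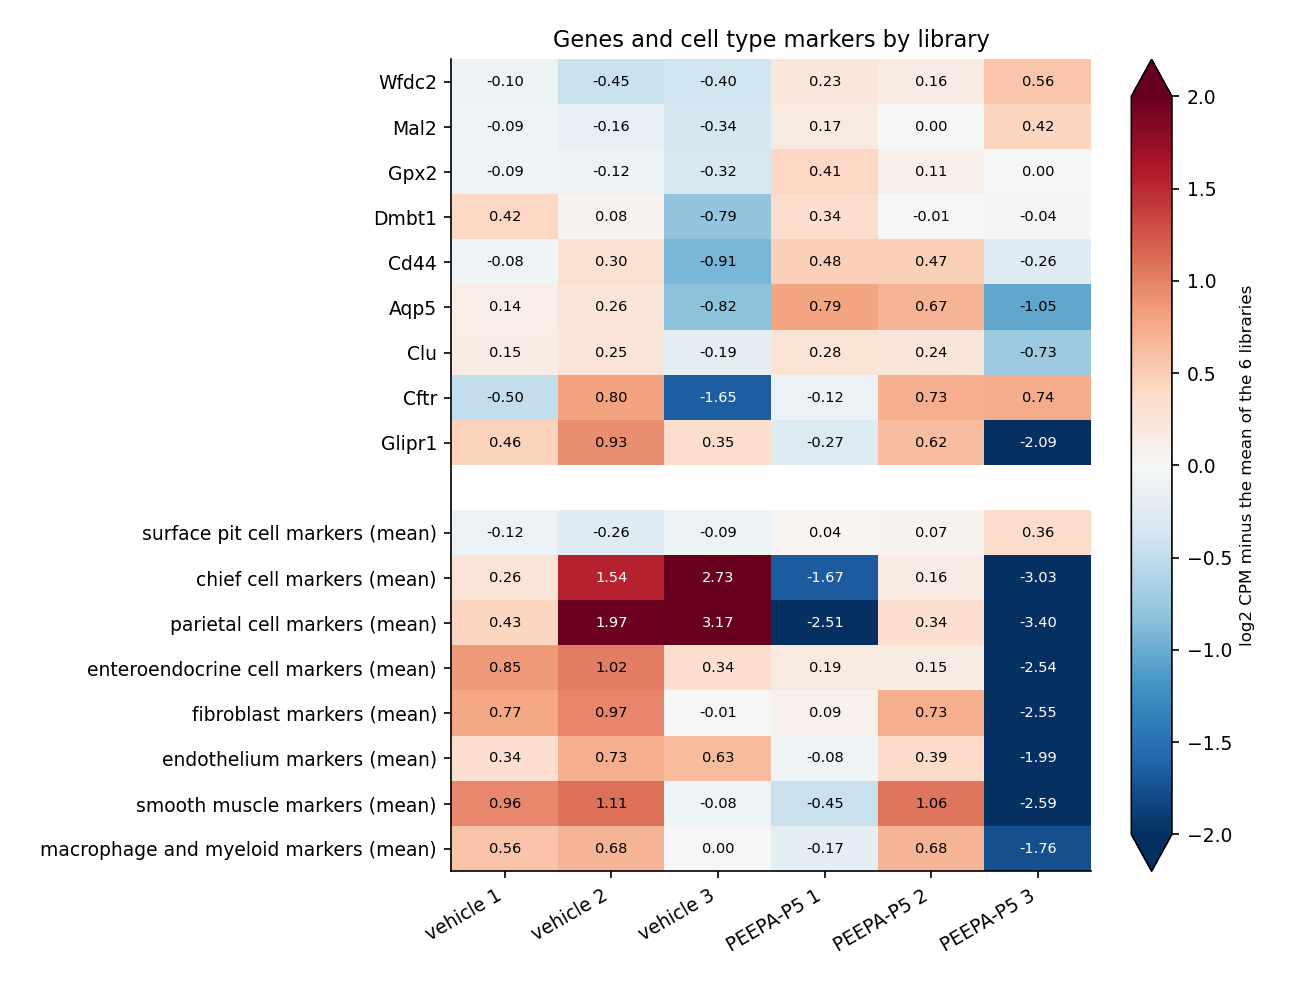
Log2 CPM in each library minus the mean over the 6 libraries, for the 9 genes (upper block) and for the mean over the tested markers of 8 cell types (lower block), with colours limited to -2 and 2. Wfdc2, Mal2 and Gpx2 are below 0 in each vehicle library, Aqp5 and Clu are lowest in PEEPA-P5 3, and the chief and parietal cell rows are highest in vehicle 3.

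The 9 genes differed in their spread within groups. The pooled SD within groups on the log2 scale was 0.18 for Gpx2, 0.18 for Mal2 and 0.20 for Wfdc2, so that between 36.8% and 44.2% of tested genes varied less. For Clu, Dmbt1 and Cd44 that SD was 0.44, 0.46 and 0.53. It was 0.84 for Aqp5, 0.93 for Cftr and 1.00 for Glipr1, and between 90.8% and 93.9% of tested genes varied less than these 3. The 3 genes with separate groups were also the 3 with the smallest spread, and the log2 fold changes of Mal2 and Gpx2, 0.40 and 0.36, were below those of Cftr, Cd44 and Aqp5, 0.62, 0.42 and 0.41.

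The likeness of library profiles was described by the root mean square (RMS) difference between centred log2 CPM values over the 6 libraries. Among the 9 genes the closest pair was Wfdc2 and Mal2, at 0.149, followed by Gpx2 and Mal2 at 0.205. Cd44 lay 0.321 from Dmbt1 and 0.370 from Aqp5. Among 9782 other genes, the nearest to Cd44 were Kif2c at 0.0839 and Aurka at 0.0986, a kinesin and a kinase of the mitotic spindle, and the second nearest to Aqp5 was the spindle checkpoint gene Bub1 at 0.175, after Rab37 at 0.149. Mal2 was nearest to Htatip2 at 0.0255 and Poc5 at 0.0315, Gpx2 to Hnrnph3 at 0.0455 and Rhob at 0.0483, and Wfdc2 to Teddm3 at 0.0656 and Zfp239 at 0.0726. Clu was nearest to Pomt1 at 0.0571 and Lars2 at 0.0675, and Dmbt1 to Rbm43 at 0.0762 and Tbc1d5 at 0.0802. Cftr had no close neighbour, with Camk1d at 0.4545 and S100a10 at 0.477, and Glipr1 was too low to be compared. With 6 libraries, many genes share a profile, and the nearest ones are given as a description.

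Other genes of SPEM and of mucous gland cells were not higher as a group. Of 18 tested, 6 were higher and 12 lower with PEEPA-P5, with 0 on the higher side and 4 on the lower side at an unadjusted p under 0.05 in edgeR, 0 at an adjusted p, and a median difference in mean log2 CPM of -0.20. Of all tested genes, 5.92% and 6.14% passed that unadjusted threshold on the higher and lower side. Groups were separate upwards in 9.74% and downwards in 10.7% of all tested genes in CPM. Tff2, the peptide that gives SPEM its name, was at 5738, 7014 and 5704 CPM with vehicle and 7042, 6747 and 6548 CPM with PEEPA-P5, and its groups overlapped. The gland mucin Muc6 was at 829, 1988 and 2872 CPM with vehicle and 690, 885 and 463 CPM with PEEPA-P5, with an unadjusted p of 0.0177 in edgeR. Vehicle 1 lay between the PEEPA-P5 libraries, so the groups of Muc6 overlapped as well, and the library richest in Muc6 was vehicle 3, the one lowest in Cd44, Dmbt1, Gpx2, Cftr and Mal2. The chemokine Cxcl17 stood at 84.3, 71.4 and 130 CPM with vehicle and 60.7, 65.0 and 64.8 CPM with PEEPA-P5, below the vehicle libraries throughout, with an unadjusted p of 0.0291 in edgeR. Ceacam10, the other gene of the 18 with groups separate in the lower direction, was at 3.22, 5.56 and 5.44 CPM with vehicle and 1.14, 1.69 and 1.28 CPM with PEEPA-P5, and its unadjusted p of 0.00131 in edgeR was the smallest of the 18. Both stayed separate by library size alone and in TPM. Vil1, the brush border protein villin, was the 1 gene of the 18 with groups separate in the higher direction, at 346, 291 and 102 CPM with vehicle and 378, 348 and 372 CPM with PEEPA-P5, with an unadjusted p of 0.212 in edgeR and overlapping groups by library size alone.

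Among signals and receptors linked to SPEM, whichever way they act on it, 13 genes were tested. Of these, 8 were higher and 5 lower, with 2 and 1 at an unadjusted p under 0.05 in edgeR and 0 at an adjusted one. In TMM-scaled CPM, groups separated upwards in 3 of them, the growth factors Areg and Tgfa and their receptor Egfr, but by library size alone and in TPM all 3 overlapped. Over all tested genes, 5.92% were higher and 6.14% lower at an unadjusted p under 0.05 in edgeR, and 9.74% separated upwards in CPM. Areg stood at 33.9, 55.8 and 29.7 CPM with vehicle and 58.3, 61.0 and 73.8 CPM with PEEPA-P5, with an edgeR log2 fold change of 0.69 and an unadjusted p of 0.0240. Egfr itself was at 64.1, 53.5 and 43.9 CPM with vehicle and 64.8, 67.4 and 94.4 CPM with PEEPA-P5, with vehicle 1 just below PEEPA-P5 1, and Tgfa was at 75.4 to 80.7 CPM with vehicle and 86.4 to 126 CPM with PEEPA-P5. Each of these 3 was highest in PEEPA-P5 3, as were Wfdc2, Mal2 and the summed pit cell genes. Csf1, a macrophage growth factor, lay lower, at 3.91 to 5.77 CPM with vehicle and 0.202 to 2.39 CPM with PEEPA-P5. Macrophage and myeloid genes summed to 34.2 to 60.4 CPM with vehicle and 10.6 to 58.2 CPM with PEEPA-P5, lowest in PEEPA-P5 3.

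The families and partners of the 9 genes did not share a direction, and 0 of their genes passed the adjusted threshold in edgeR. The counts include the SPEM gene itself where it belongs to the family. Beside them, 5.92% of all tested genes were higher and 6.14% lower at an unadjusted p under 0.05 in edgeR. Groups were separate in CPM, upwards in 9.74% and downwards in 10.7% of all tested genes. Scaled by library size alone, the median of all tested genes was -0.09, so genes this close to 0 can have either sign. For Mal2, 8 of 10 genes of a list of MAL proteolipids and more distant relatives, Cmtm4, Cmtm6, Cmtm8 and Marveld1 among them, were higher. Of the 8, 3 were so at an unadjusted p under 0.05 in edgeR and 4 with separate groups, or 2 by library size alone. Mal was at 1302 to 1543 CPM with vehicle and 1542 to 2303 CPM with PEEPA-P5, Mall at 19.3 to 48.7 CPM and 54.1 to 72.9 CPM, while Marveld1 was lower, at 13.8 to 20.4 CPM and 3.36 to 11.6 CPM. Plp2 and Pllp of this list were among those with a sign that depended on the scaling, at -0.0194 and -0.0334 in mean log2 CPM by library size alone and 0.0616 and 0.0476 by TMM. For Gpx2, 7 of 16 glutathione peroxidases and targets of the oxidant-responsive factor NRF2 were higher and 9 lower, with 3 and 0 at an unadjusted p under 0.05 in edgeR, namely Gpx1, Gpx2 and Srxn1. Gpx1, the ubiquitous glutathione peroxidase, was at 477, 313 and 334 CPM with vehicle and 549, 494 and 551 CPM with PEEPA-P5, with an unadjusted p of 0.0217 in edgeR. The NRF2 targets went both ways, with edgeR log2 fold changes of 0.54 for Hmox1, 0.31 for Srxn1, 0.06 for Txnrd1, -0.11 for Nqo1 and -0.24 for Gclc, and -0.21 for the factor's own gene Nfe2l2.

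For Cd44, 7 of 14 ligand, splicing and redox partners were higher and 7 lower, with 0 at an unadjusted p under 0.05 in edgeR. Esrp1, a splicing regulator that favours epithelial variants of Cd44, was at 154 to 183 CPM with vehicle and 188 to 236 CPM with PEEPA-P5, separate in this scaling and overlapping by library size alone. Spp1, the secreted ligand osteopontin, followed Aqp5 in being lowest in PEEPA-P5 3, at 373, 326 and 121 CPM with vehicle and 502, 442 and 79.4 CPM with PEEPA-P5. Slc3a2, the heavy chain of the cystine transporter that Cd44 variants stabilise, had an edgeR log2 fold change of -0.31 and overlapping groups. For Cftr, 6 of 11 partners and genes of anion secretion were higher and 5 lower, with 0 and 1 at an unadjusted p under 0.05 in edgeR. The 1 was Car9, with an edgeR log2 fold change of -0.77, an unadjusted p of 0.0378 and overlapping groups. The largest difference was that of Clca1, a secreted goblet cell protein, at 2485, 1488 and 344 CPM with vehicle and 3129, 4810 and 4576 CPM with PEEPA-P5, lowest in vehicle 3 as Cftr was, with an unadjusted p of 0.0608 in edgeR.

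For Aqp5, 2 of 5 tested family genes were higher, and the one with the most reads was Aqp3, at 260 to 388 CPM with vehicle and 352 to 370 CPM with PEEPA-P5. Aqp4, the water channel of parietal cells, was at 1.67, 11.01 and 22.3 CPM with vehicle and 0, 2.22 and 0 CPM with PEEPA-P5, following the parietal genes and not Aqp5. For Wfdc2, 3 of 4 tested genes of its family were higher, and Wfdc2 itself had the most reads. For Dmbt1, the binding partner Lgals3, or galectin-3, was at 447, 167 and 418 CPM with vehicle and 533, 699 and 980 CPM with PEEPA-P5, so that the groups of Lgals3 separated while those of Dmbt1 did not. For Glipr1 all 3 tested genes of its family were lower with PEEPA-P5 and lowest in PEEPA-P5 3. For Clu 3 of 4 genes were lower, among them Apoe at 40.5 to 67.9 CPM with vehicle and 11.2 to 67.3 CPM with PEEPA-P5.

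**Figure D5:**
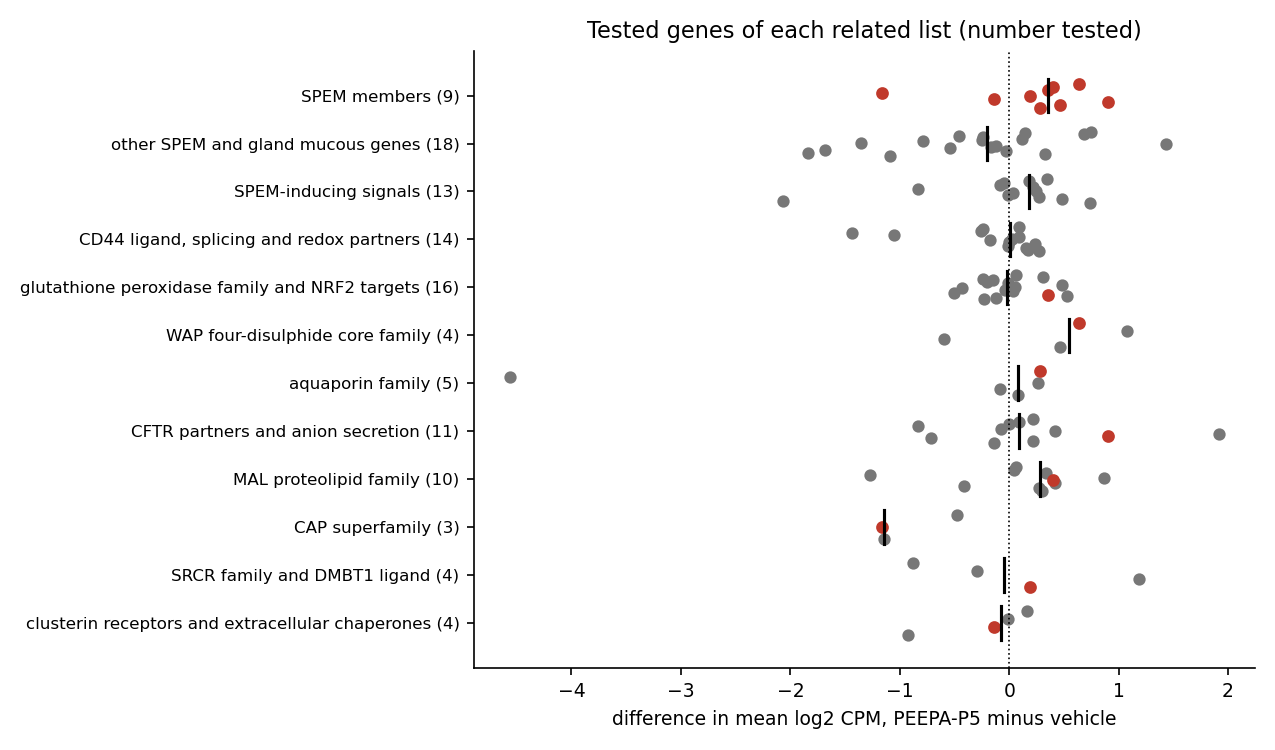
Difference in mean log2 CPM, PEEPA-P5 minus vehicle, for every tested gene of the 9 SPEM genes and of 11 related lists, with the 9 genes in red wherever they occur and a vertical bar for the median of each list. The median of the 9 genes is 0.35 and that of the other SPEM and gland mucous genes -0.20, and the point farthest to the left is Aqp4.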

How the data were processed

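RNA of antrum epithelium was extracted with Trizol and made into libraries with an Illumina TruSeq kit, per the labels' protocols. Bowtie2 2.2.5, RSEM 1.2.12 and build mm9 are named in the submitters' processing notes, with settings and strandedness not given in the sources used here. As the file headers show, the table deposited by the authors holds for each gene and library an expected count, an estimate of reads that is not normalized, and a TPM value, scaled by the authors to transcript length and library. Of the expected counts, 9.82% were not whole, and all were rounded before testing.

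Groups came from the treatment labels. The main test was edgeR 4.0.16 (R 4.3.3; robust quasi-likelihood, TMM factors, filterByExpr, Benjamini-Hochberg adjustment over all 13071 tested genes); it was tested on simulated data. CPM are scaled by TMM, log2 CPM has a prior count of 2, and SDs are over 3 libraries. DESeq2 1.42.0, limma 3.58.1 (voom, and log2 TPM with pseudocounts of 1 and 0.1), other scalings and filters, a replicate block and left-out libraries were the alternatives. An exact permutation of 3 against 3 libraries cannot go below p = 0.1.

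The 9 genes, 26 gene lists (251 of 269 symbols matched exactly) and tests were chosen with earlier results of these data known. Named beside the 9 genes are, per list, the 6 genes with the highest mean CPM, those with separate groups at a mean of at least 1 CPM, and the 2 genes nearest in profile to each of the 9 among genes with a mean of at least 5 CPM. Not all of these are printed, and Krt5, Krt14, Lor, Srxn1, Hmox1, Muc2 and Car9 were named after their values were seen. No 2 libraries agreed within sampling noise (chi-square per degree of freedom 13.3 or more). The closest pair was PEEPA-P5 1 and 2. Vehicle 1 was nearer to both of these (15.7 and 16.4) than to vehicle 2 (52.0) or vehicle 3 (160.6). Replicate numbers 1 to 3 are in the labels without a meaning. Across genes, the deviations of same-numbered libraries from their group means had correlations of 0.237, 0.346 and 0.235. Between differently numbered libraries the correlations lay between -0.349 and 0.176. The numbers were thus treated as possible pairs, from the data and not from the design. Promoters are RefSeq entries of build GRCm38.p6, and shared stretches were counted in GENCODE mouse transcripts of the same build.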

Additional observations from a re-analysis of the deposited data

How the results depend on the processing

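The count of SPEM genes at an adjusted p under 0.05 was 0 under each of the 17 alternatives. Over all genes that count was 0, against 101 with DESeq2, 0 with limma-voom and 0 to 1 with each library left out, the 1 without vehicle 1. At an unadjusted p under 0.05 it was 1576, and 717 to 2070 with a library left out: 717 when vehicle 2 was left out, 759 for vehicle 3 and 1008 for PEEPA-P5 1. The count of SPEM genes on the higher side at an unadjusted p, 3 in all, was 1 (Wfdc2) with library size alone, 1 with log2 TPM and either pseudocount, 4 with the replicate block, and 1 to 3 with a library left out, the 1 without vehicle 3. In TPM, 1 SPEM gene had all PEEPA-P5 libraries above all vehicle libraries. The median over the SPEM genes ran from 0.12 without vehicle 3 to 0.45 without vehicle 1. Of 152 single-gene fits, 6 turned sign, all of Clu and Dmbt1. The log2 fold change of Clu ran from -0.25 to 0.18 with a library left out, was 0.0068 without vehicle 2, and 0.0602 without both libraries numbered 3. That of Dmbt1 ran from -0.15 to 0.40, was -0.0114 without PEEPA-P5 1, and -0.0779 without both libraries numbered 3. The cause was not tested. The replicate block changed no call at an adjusted p. Depth limited Glipr1, with 1 to 26 counts a library, and at a filter of a mean of at least 1 CPM it was not tested. Intervals rest on 3 libraries a group.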

Other observations

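Genes of squamous epithelium, the lining of the forestomach, separated the groups where they had enough reads to be tested. Of 5 tested, 5 were higher with PEEPA-P5, 5 at an unadjusted p under 0.05 in edgeR, 0 at an adjusted p, and 5 with groups that did not overlap, or 4 by library size alone. Of all tested genes, 49.4% were higher, 5.92% were so at an unadjusted p under 0.05 in edgeR, and 9.74% had groups separate upwards in CPM. Slurp1, a secreted protein of squamous epithelium, stood at 120, 79.2 and 80.5 CPM with vehicle and 186, 175 and 191 CPM with PEEPA-P5. The keratin gene Krt78 was at 21.6 to 27.8 CPM with vehicle and 47.9 to 57.8 CPM with PEEPA-P5. Krt13, Krt4 and Rptn were lower in level, at 1.41 to 3.57, 0.324 to 0.897 and 0.518 to 0.594 CPM with vehicle and 3.83 to 10.98, 1.11 to 2.42 and 1.21 to 2.15 CPM with PEEPA-P5. The basal keratins Krt5 and Krt14 were at or under 0.06 CPM in all 6 libraries and were not tested. Ivl and Lor were not tested either, and their groups overlapped. Ivl had means of 0.248 CPM with vehicle and 0.399 CPM with PEEPA-P5, and Lor went the other way, with 0.337 and 0.103 CPM.

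Intestinal genes were uneven, and the goblet cell genes among them did not share a library pattern. Zg16 and Fcgbp were lowest in vehicle 3, the library lowest in 5 of the SPEM genes, and Muc2 and Tff3 were lowest in PEEPA-P5 1 and highest in PEEPA-P5 3, at 3.79 and 47.5 CPM for Muc2 and 5.18 and 77.98 CPM for Tff3. Zg16, a goblet cell lectin, stood at 190.1, 65.3 and 21.6 CPM with vehicle and 398, 629.9 and 245 CPM with PEEPA-P5, with separate groups and an unadjusted p of 0.0345 in edgeR. Fcgbp, a protein of goblet cell mucus, was at 4834, 935 and 684 CPM with vehicle and 4280, 5229.8 and 5409 CPM with PEEPA-P5, with overlapping groups. Of 8 intestinal genes tested, 7 were higher with PEEPA-P5, 1 at an unadjusted p under 0.05 in edgeR and 0 at an adjusted p. Over all tested genes, 49.4% were higher, and 5.92% were so at an unadjusted p under 0.05 in edgeR. Exocrine pancreas genes were uneven too, summing to 33.6, 1015 and 878 CPM with vehicle and 6.14, 33.3 and 11.7 CPM with PEEPA-P5. In vehicle 2 and 3 most of that sum was the amylase gene Amy2a5, at 955 and 806 CPM, while the protease genes Prss1 and Ctrb1 were at or under 0.192 CPM in all 6 libraries. All 3 pancreas genes tested were lower with PEEPA-P5, 3 at an unadjusted p under 0.05 in edgeR and 0 at an adjusted p. Cel and Pnliprp2 had separate groups and Amy2a5 overlapping ones. Beside them, 6.14% of all tested genes were lower at that unadjusted p, and 10.7% had groups separate downwards in CPM.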
